A study of Mus musculus with 8 samples.

Results

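The 36 genes described here are transcripts of skeletal muscle, chosen by symbol as the contractile, calcium-handling and metabolic genes of fast and slow muscle fibres, and all 36 were among the 18193 genes on the array. By role they were 14 fast fibre genes, 8 slow fibre genes, 5 metabolic genes and 9 genes that both fibre kinds share. Transcript levels were measured on 8 one-colour Affymetrix arrays of inguinal mammary gland tissue from virgin mice that had all been gonadectomized and were 12 to 13 weeks old. The E2 groups, 6 in all, had been given 17β-estradiol (E2), the most active natural estrogen, by subcutaneous injection, with 1 array for each interval to collection, the intervals being 1, 3 and 6 h and then 12, 18 and 24 h, and the 2 vehicle arrays, vehicle 1 and vehicle 2, were both titled 24 h. The times come from the sample titles, whereas the sample descriptions give 24 h throughout, and the labels give the dose in conflicting units, so no dose is stated. The labels name no strain and leave unsaid whether an array held the pooled RNA of a group's mice. The question was whether fast, slow and metabolic muscle genes moved in one fixed ratio across the arrays or apart. The transcripts of one admixed tissue with a constant mix of fibres would keep a fixed ratio.

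Skeletal muscle fibres contract when calcium, released from the sarcoplasmic reticulum, binds troponin on the thin filament and lets myosin heads pull on actin. Fibre types are named by their myosin heavy chain, which is Myh4 in the fastest, glycolytic type IIb fibres, Myh1 in type IIx, Myh2 in the fast but oxidative type IIa and Myh7 in slow type I fibres. Troponin, myosin light chains and the calcium pump also come in fast and slow forms from separate genes, and oxidative fibres are rich in the oxygen store myoglobin. The mammary gland has no skeletal muscle of its own, but the inguinal fat pad lies under the skin against the muscles of the body wall and thigh. In bulk tissue, fewer cells of a type and less RNA per cell cannot be told apart.

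The deposited values were normalized intensity values on a linear scale, and differences are given on the log2 scale against the mean of the vehicle arrays unless stated otherwise. Array medians lay between 173.9 and 180.5, and no array's median was over 0.028 from the vehicle mean on the log2 scale. A gene was represented by its brightest probe set and tested where its mean log2 intensity reached the 40th percentile of all genes, which is an intensity of 211. That left 10916 genes and 27 of the 36 muscle genes: 12 of 14 fast fibre, 2 of 8 slow fibre, 5 of 5 metabolic and 8 of 9 shared genes. The 9 below the filter were Myh1, Myh2, Tnnc1, Tnni1, Tnnt1, Myh7, Myl2, Mybpc1 and Actn2. Markers of the gland itself were present, since 9 of 9 luminal epithelial and 7 of 7 white adipocyte genes on the array passed the filter. The vehicle arrays differed in muscle signal: 34 of the 36 genes (94.4%) were higher on vehicle 1 than on vehicle 2, against 57.5% of all genes.

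The 3 myosin heavy chain genes that the results turn on, Myh2, Myh1 and Myh4, follow each other in this order on chromosome 11, between Myh3 and Myh8. Their promoters are shown because these neighbours followed different courses over the arrays. Each sequence is the RefSeq window of 300 bases, most of it before the annotated start, in GRCm38.p6, plus strand, at chr11:67170777-67171076 for Myh2, chr11:67199852-67200151 for Myh1 and chr11:67237562-67237861 for Myh4. The first block of capitals marks the longest stretch common to all 3, of 20 bases. The second marks the TATAAA nearest to the annotated start. Counted in bases before the annotated start, that TATAAA began at -10 for Myh2, so after the start, at 32 for Myh1 and at 31 for Myh4. All distances given here depend on where the start was annotated.
Myh2: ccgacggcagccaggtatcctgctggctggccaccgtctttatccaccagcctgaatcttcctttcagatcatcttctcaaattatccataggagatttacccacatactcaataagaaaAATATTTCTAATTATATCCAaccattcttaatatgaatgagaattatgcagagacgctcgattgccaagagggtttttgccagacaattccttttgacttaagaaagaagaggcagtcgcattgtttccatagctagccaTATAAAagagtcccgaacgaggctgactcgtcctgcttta
Myh1: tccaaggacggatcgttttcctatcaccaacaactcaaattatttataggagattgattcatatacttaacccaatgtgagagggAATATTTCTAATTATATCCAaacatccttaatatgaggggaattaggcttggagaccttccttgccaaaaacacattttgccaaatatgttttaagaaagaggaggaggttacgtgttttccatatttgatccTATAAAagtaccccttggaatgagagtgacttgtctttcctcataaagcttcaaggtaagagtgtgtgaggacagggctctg
Myh4: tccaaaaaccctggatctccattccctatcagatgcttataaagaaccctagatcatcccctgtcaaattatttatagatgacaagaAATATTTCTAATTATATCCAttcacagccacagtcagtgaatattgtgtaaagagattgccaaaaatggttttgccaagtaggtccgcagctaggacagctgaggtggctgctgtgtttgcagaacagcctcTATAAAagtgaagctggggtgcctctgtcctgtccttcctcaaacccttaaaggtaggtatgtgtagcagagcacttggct
The common stretch, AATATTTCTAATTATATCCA, began 130 bases before the start of Myh2, 165 before that of Myh1 and 163 before that of Myh4. It occurs, on either strand, in 3 of the 32851 promoter windows of the table (0.00913%), which are these 3. TATAAA, on either strand, occurs in 13.6% of the windows and in 7 of the 28 muscle genes that matched one. CAGCTG, an E-box of the kind that myogenic factors bind, occurs in 16.3% of windows and in 15 of the 28, Myh4 among them and Myh1 and Myh2 not. The full palindrome of the consensus estrogen response element, with any bases in its spacer, occurs in 0.07% of windows and in 0 of the 28, and the CArG box occurs in 1.63% of windows and in 4 of the 28, namely Myh4, Myl3, Acta1 and Ldb3. TATAAA and the CArG box can overlap. These are matches of letters in a short window, not sites.

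Most fast fibre genes lay well above vehicle on 5 of the 6 E2 arrays and close to the level of vehicle 1 on the 12 h array. Myh4, the type IIb myosin heavy chain, had intensities of 694.5 and 605 on vehicle 1 and vehicle 2, followed by 1373, 1113, 1373, 702, 1274 and 1043 on the E2 arrays in order of time. Pvalb, the calcium buffer parvalbumin of fast fibres, had 1148 and 805 with vehicle and 1919.5, 1628, 2259, 1139, 1953 and 1675 at the 6 E2 times in order. For Myh4 every E2 array stood above both vehicle arrays, though at 12 h by only 0.02 on the log2 scale, and for Pvalb all did but that of 12 h, which differed from vehicle 1 by -0.01. Over the 12 tested fast fibre genes the mean difference from the vehicle mean, here called the fast fibre index, was 0.20 for vehicle 1 and -0.20 for vehicle 2, and 0.87, 0.65, 1.13, 0.19, 0.87 and 0.84 at the E2 times in order. The index therefore had no steady course over time: it was highest at 6 h and, at 12 h, inside the range of the vehicle arrays.

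The thin filament and pump genes of fast fibres went with it. Tnnc2, the calcium-binding troponin C of fast fibres, differed from the vehicle mean by 1.00, 0.75, 1.32, 0.21, 0.97 and 0.92 at the 6 times, and Atp2a1, the fast calcium pump, by 0.88, 0.69, 1.23, 0.12, 0.86 and 0.92. Troponin I (Tnni2), troponin T (Tnnt3), the myosin light chains Mylpf and Myl1, the myosin-binding protein Mybpc2, the Z-disc actinin Actn3 and Casq1, which stores calcium in the reticulum, lay between 0.50 and 1.34 at 1, 3, 6, 18 and 24 h and between 0.11 and 0.31 at 12 h. Myoz1, a Z-disc protein of fast fibres, had the smallest differences of the 12, from 0.10 at 12 h to 0.51 at 6 h. The second probe set of Myh4 was also lowest at 12 h among the E2 arrays, with 1.21, 1.09, 1.30, 0.37, 1.29 and 0.81.

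The type IIx and type IIa myosins did otherwise. Myh1 had intensities of 219 and 87.7 on vehicle 1 and vehicle 2, followed by 75.2, 106, 901, 206, 71.9 and 1020.5 on the E2 arrays in order of time. Myh2 had 52.4 and 42.6 with vehicle and 41.8, 35.99, 237.9, 44.3, 41.7 and 184.3 at the 6 times. Both were thus far above vehicle at 6 and 24 h alone, and below both vehicle arrays at 1 and 18 h. At 1 and 18 h Myh4 was higher than the vehicle mean by 1.08 and 0.97. Myh2 was at those times only slightly below vehicle 2, and its lowest value was at 3 h. On the log2 scale the vehicle arrays lay at 0.66 and -0.66 for Myh1, the widest vehicle spread of all genes on the array. Myh1 differed from the vehicle mean by 2.70 and 2.88 at 6 and 24 h and by -0.88 and -0.94 at 1 and 18 h. The second Myh1 probe set repeated this, with 2.58 and 2.60 at 6 and 24 h and -0.94 and -0.85 at 1 and 18 h. The third and dimmest did not, with 0.24 and 0.23 at 6 and 24 h and -0.03 and 0.13 at 1 and 18 h. The 3 chains are close paralogs, so the share of each signal that comes from a neighbour's transcript is uncertain.

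**Figure D1:**
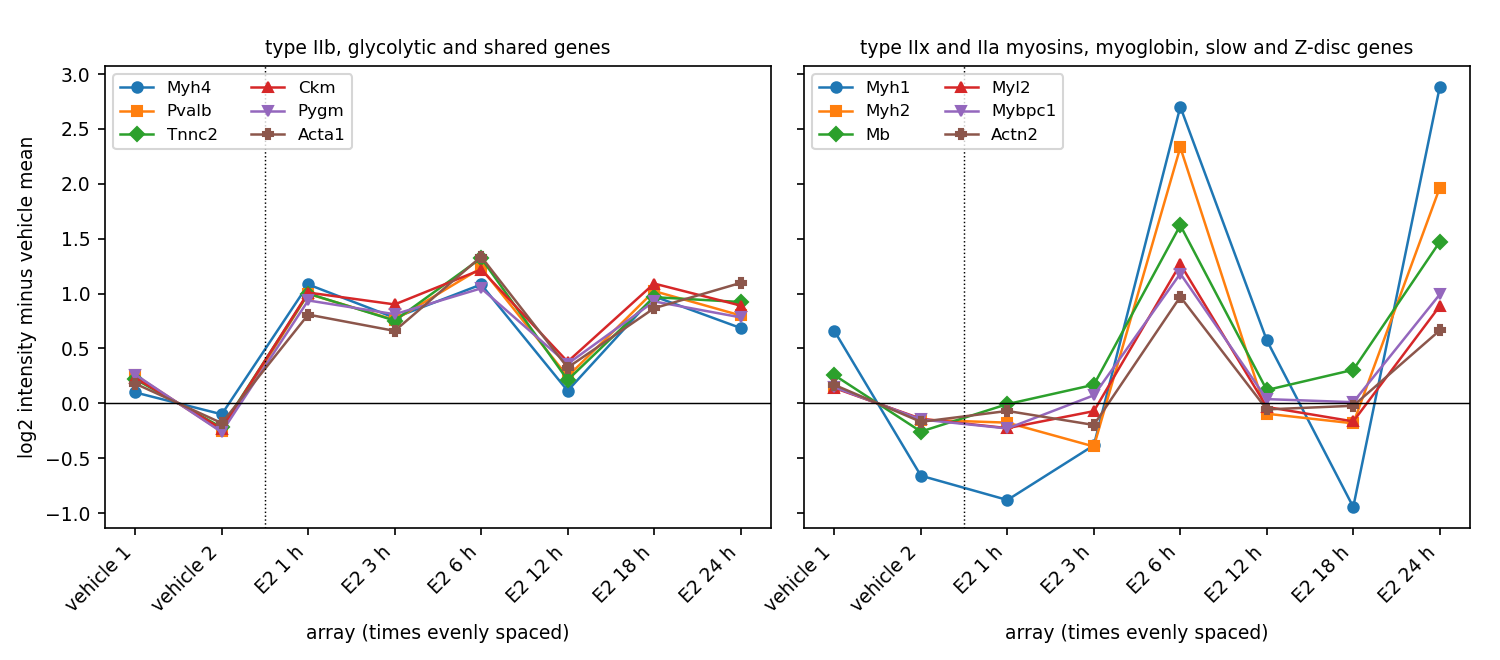
Log2 intensity minus the vehicle mean (vertical axis) for 6 muscle genes in each panel on vehicle 1, vehicle 2 and the E2 arrays from 1 to 24 h, spaced evenly, with 1 point an array and lines to guide the eye. On the left, type IIb, glycolytic and shared genes are high at 1, 3, 6, 18 and 24 h. On the right, Myh1, Myh2, Mb, Myl2, Mybpc1 and Actn2 are high at 6 and 24 h and near or below vehicle at 1 and 18 h.

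Among slow fibre genes, 6 of 8 were, like Myh1 and Myh2, highest on the 6 and 24 h arrays, with smaller differences, and 2 were nearly flat. Myl2, the slow regulatory myosin light chain, had intensities of 89.5 and 73.7 with vehicle and 69.5, 77.3, 196, 79.4, 72.5 and 150.1 at the 6 E2 times. Mybpc1, the slow myosin-binding protein, had 142.5 and 116 with vehicle and 109.8, 135, 292, 132, 129.7 and 256 at these times. Both stood above both vehicle arrays at 6 and 24 h only. Tnnc1, Tnni1 and Tnnt1, the slow troponins, and Myh7, the slow myosin heavy chain, lay 0.70 to 0.76 above the vehicle mean at 6 h and 0.44 to 0.64 at 24 h, and between -0.11 and 0.21 at 1, 3, 12 and 18 h. All 6 of these genes were below the level filter. A further Mybpc1 probe set gave 1.35 and 1.36 at 6 and 24 h, and the dimmest gave 0.21 at both.

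The flat pair were the slow fibre genes above the filter. Atp2a2, the calcium pump of slow fibres that most other cells also use, ranged from -0.12 at 24 h to 0.16 at 6 h. Myl3, the slow essential light chain, ranged from -0.03 at 1 h to 0.25 at 24 h. Its dimmest probe set reached 0.64 at 6 h and 0.42 at 24 h, and the middle one 0.21 and 0.16.

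The metabolic genes divided between both courses. Ckm, the muscle creatine kinase that buffers ATP, had intensities of 1696 and 1231 with vehicle and 2909, 2699.5, 3364, 1880.4, 3079.8 and 2680.8 at the 6 times. Pygm, which breaks down glycogen, and Eno3, the muscle enolase of glycolysis, differed from the vehicle mean by 0.94 and 0.65 at 1 h, 1.05 and 1.17 at 6 h, and 0.93 and 0.70 at 18 h. These 3 glycolytic and phosphate-buffer genes stood above both vehicle arrays on all 6 E2 arrays. Mb, myoglobin, had 196 and 137 with vehicle and 163, 184, 505, 178, 203 and 454 at the 6 times, and so was inside the vehicle range at 1, 3 and 12 h, just above it at 18 h and far above it at 6 and 24 h. Car3, a carbonic anhydrase of slow fibres that is also very abundant in adipocytes, stayed between -0.07 and 0.12.

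Of the genes that all fibres use, Acta1, Neb, Ttn and Ryr1 had the high and low arrays of the fast fibre index. Acta1, skeletal alpha-actin, had intensities of 2646 and 2062 with vehicle and 4092, 3691, 5899, 2927, 4260.3 and 4998 at the 6 times, above both vehicle arrays on every E2 array. Neb and Ttn, the giant rulers of the thin filament and of the sarcomere, and Ryr1, the calcium release channel, lay at 1.44, 1.43 and 1.105 at 6 h and at 0.83, 0.86 and 0.61 at 18 h. Tcap, the cap of titin at the Z-disc, was in between, with 0.41 and 0.38 on the 1 and 18 h arrays and 1.36 and 0.87 on the 6 and 24 h arrays. Actn2, the actinin of all fibres, went with Myh1, at 0.97 and 0.67 at 6 and 24 h and between -0.20 and -0.02 on the other E2 arrays. Des, the intermediate filament desmin, and Ldb3, a Z-disc scaffold, reached 0.55 and 0.91 at 6 h and 0.62 and 0.63 at 24 h. Tpm2, beta-tropomyosin, which smooth muscle also makes, was within 0.16 of the vehicle mean in its brightest probe set. Its dimmest one gave 0.81, 0.52, 1.27, 0.20, 0.80 and 0.95 and so followed the fast fibre index. The remaining Tpm2 probe sets gave 1.19 and 0.44 at 6 h, and 0.37 and 0.20 at 18 h. A second Ldb3 probe set was highest at 3 h, at 1.23. Dimmer probe sets of Ckm, Des and Mb were flatter than the brightest ones, reaching 0.30, 0.20 and 0.14.

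**Figure D2:**
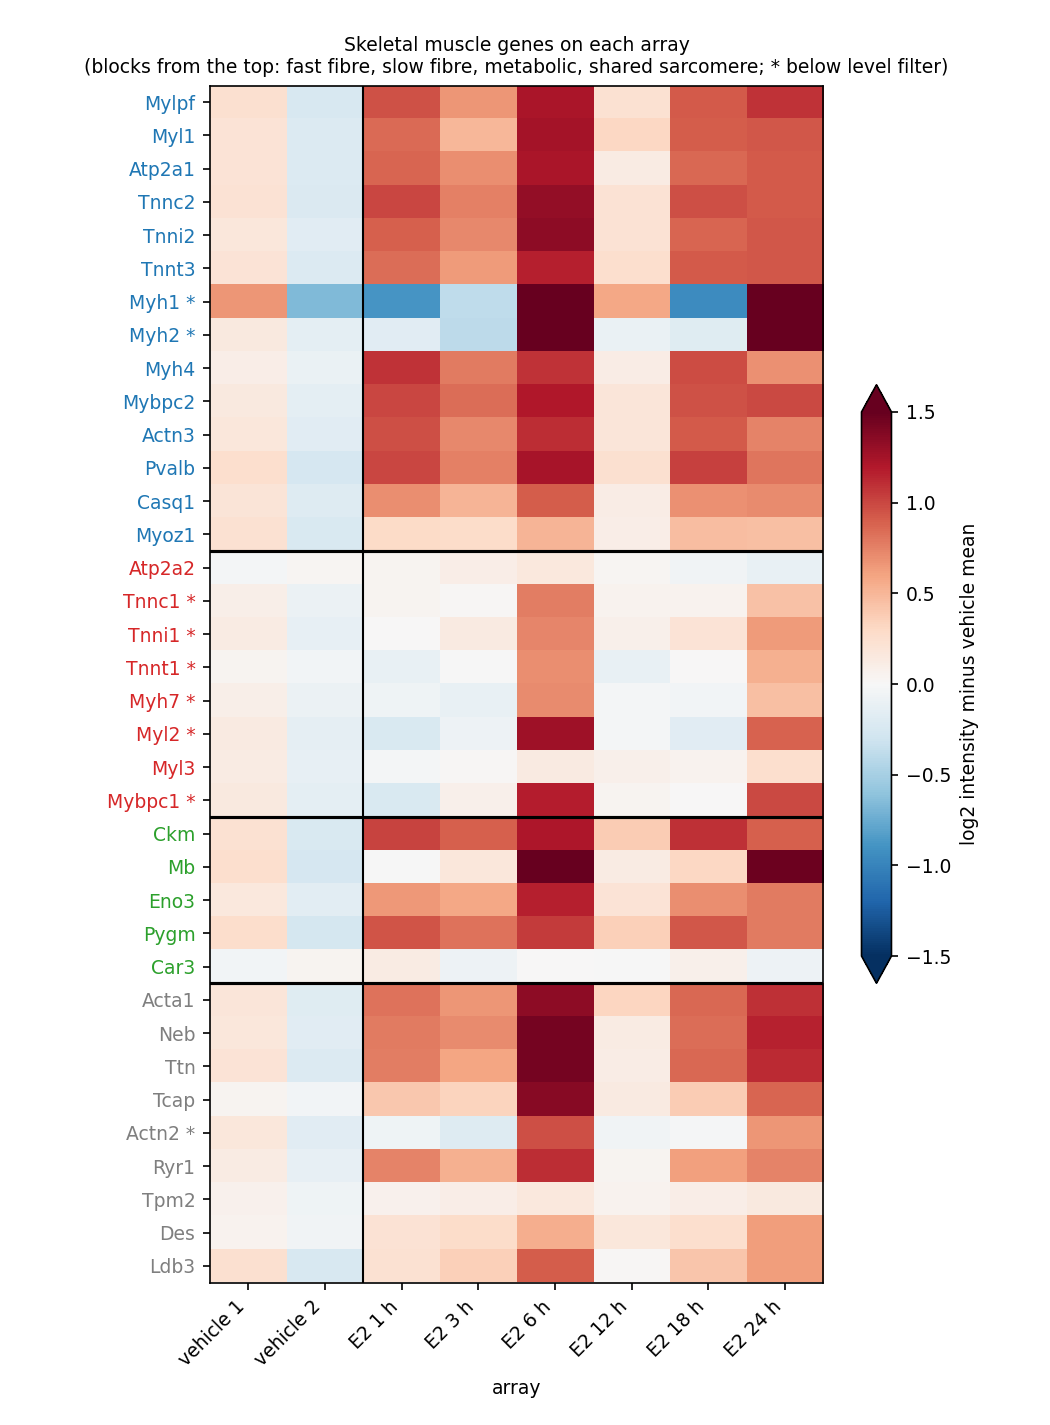
Log2 intensity minus the vehicle mean (colour, cut at 1.5 either way) of the 36 genes, 1 a row in blocks by role, on the 8 arrays in columns, with an asterisk at the 9 genes below the level filter. The 6 h column is red for nearly all genes, the 12 h column is pale, and at 1 and 18 h most fast fibre genes are red while slow fibre genes are pale.

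The number of genes well above vehicle followed the same lines. On the 1 h array 15 of the 36 were at least 1.5-fold above both vehicle arrays, where 0.203% of all 18193 genes were, and on the 3 h array 3 were (0.445%). The 6 h array had 30 (0.5%) and the 12 h array 0 (0.115%). There were 15 on the 18 h array (0.132%) and 20 on the 24 h array (0.17%). As far below both vehicle arrays lay 0 of the 36 at every time, where 0.0165%, 0.17%, 0.0989%, 0.0385%, 0.0165% and 0.0165% of all genes did from 1 to 24 h. These are counts from 1 array a time with no replicate check. By role, 10 fast fibre genes and 0 slow fibre genes passed at 1 h and at 18 h, 13 and 6 did at 6 h, and 10 and 2 did at 24 h, where the slow fibre genes were Myl2 and Mybpc1. At 3 h the genes were Myh4, Mybpc2 and Ckm, and against vehicle 2 alone 19 of the 36 passed at that time, where 0.753% of all genes did. At 2-fold above both, 15 passed at 6 h (0.148% of all genes) and Myh1, Myh2 and Mb at 24 h (0.0275%). All 6 E2 arrays stood above both vehicle arrays for 12 of the 36 genes, among them 6 fast fibre, 3 metabolic, 3 shared and 0 slow fibre genes, against 3.79% of all genes, and below both for 0, against 1.59%.

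With the 6 E2 arrays as one group against the 2 vehicle arrays, limma called 0 of 10916 genes (0%), muscle genes included, at an adjusted p below 0.05. At an unadjusted p below 0.05 it had 20 of the 27 tested muscle genes and 2.29% of all genes, and without vehicle 2, the array with less muscle signal, 4 of the 27 and 1.27% of all genes. The median difference was 0.78 over the 27 and 0.00052 over all genes tested. Ckm had the smallest p of the muscle genes, with a difference of 0.92 ± 0.192 (SE, 6 E2 and 2 vehicle arrays) and an adjusted p of 0.9998. Acta1 exceeded vehicle by 0.85 ± 0.217, Myh4 by 0.79 ± 0.219, and Mb, whose E2 arrays spread widely, by 0.61 ± 0.436, each at the same adjusted p. Without vehicle 2 the difference of Mb was 0.36.

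Split into early and late E2 arrays, the comparison with vehicle again called no muscle gene. The early window (1, 3 and 6 h) had 0 called genes (0%) and a median of 0.88 over the 27 muscle genes, of which 21 had an unadjusted p below 0.05 against 5.38% of all genes. The late window (12, 18 and 24 h) had 0 called genes (0%), a median of 0.63, and 20 muscle genes at an unadjusted p below 0.05 against 7.6% of all genes. That late count of 20 was 1 of 27 without vehicle 2 (2.35% of all genes), 10 without the 18 h array (3.91%) and 11 without the 24 h array (5.08%). Both comparisons share the vehicle arrays. Between the windows, 60 genes were called (0.55%), 0 of them muscle genes. The p-values rest on the spread of these few arrays, part of which may be technical, and time within a window counts as spread. A limma fit with 7 group means, which assumes that a lone array varies as the vehicle pair does, called 9 muscle genes at 6 h (0.366% of all genes were called), among them Acta1, Neb, Ttn, Myh4 and Eno3, and 0 at 1 h (0.0641%), 3 h (0.595%), 12 h (0.0366%), 18 h (0%) and 24 h (0%). The 12 h array, at the vehicle level, lies in the late window, and without it the late median was 0.86.

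The next fit asked which genes kept one ratio with the fast fibre genes. Each gene's log2 intensity was fitted on the fast fibre index over the 8 arrays. A gene in fixed proportion has a slope of 1 if all its signal comes from muscle. Signal from other cells or background lowers the slope, and its share was not tested. The p-values test for any slope at all, so a call does not show a slope of 1. Of the 10916 genes, 28 were called (0.257%), all with positive slopes. They comprised the 12 fast fibre genes that make up the index, which is no result for them, 7 of the other 15 tested muscle genes and 9 further genes. Of those 15, 12 had an unadjusted p below 0.05, against 5.06% of all genes. Acta1 had a slope of 1.07 (95% interval 0.88 to 1.27, limma adjusted p = 0.000165), Ckm 1.09 (0.93 to 1.26, adjusted p = 4.3e-05) and Neb 1.17 (0.92 to 1.41, adjusted p = 0.000531). Ttn at 1.16, Pygm at 0.96, Ryr1 at 0.90 and Eno3 at 0.90 were also called. The intervals of these 7 all held 1.

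The intervals of most uncalled muscle genes lay below 1. Atp2a2 (0.03, interval -0.13 to 0.19), Myl3 (0.11, -0.06 to 0.29), Car3 (0.01, -0.12 to 0.15), Tpm2 (0.13, 0.03 to 0.23), Des (0.41, 0.19 to 0.63) and Ldb3 (0.69, 0.41 to 0.96) were of this kind. Within the index itself, Myoz1 (0.49, 0.32 to 0.66) and Casq1 (0.83, 0.73 to 0.92) also had intervals below 1. That of Tnnc2 (1.14, 1.05 to 1.24) lay above 1. An interval that misses 1 thus does not by itself set a gene apart from the fast fibre genes. With the mean of its probe sets Tpm2 was called, at 0.58 (adjusted p = 0.0119), and Pygm was not called with the index taken over the shared genes (adjusted p = 0.0533) or over all fast fibre genes (adjusted p = 0.0699). Mb had a slope of 1.01 with a wide interval, 0.21 to 1.82, and its residuals had an SD of 0.559, against 0.0970 for Ckm. Tcap lay at 0.85 (0.43 to 1.27), and was called with the index over all fast fibre genes (0.89, adjusted p = 0.00327). Des (0.43, adjusted p = 0.0179) and Ldb3 (0.68, adjusted p = 0.00168) were called with that index too, and Ldb3 also without the 1 h array (0.76, adjusted p = 0.00843). The index over shared genes holds Tcap, Des and Ldb3 themselves, so their fits on it are no result. Fitted without the level filter, Myh1 had a slope of 1.21 (-0.91 to 3.34, residual SD 1.56) and Myh2 one of 1.24 (-0.11 to 2.59), while the slow fibre genes Myl2 and Mybpc1 had 0.62 and 0.63 and Tnnc1, Tnni1, Tnnt1 and Myh7 between 0.36 and 0.47. None of these was called (adjusted p from 0.622 to 0.778).

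**Figure D3:**
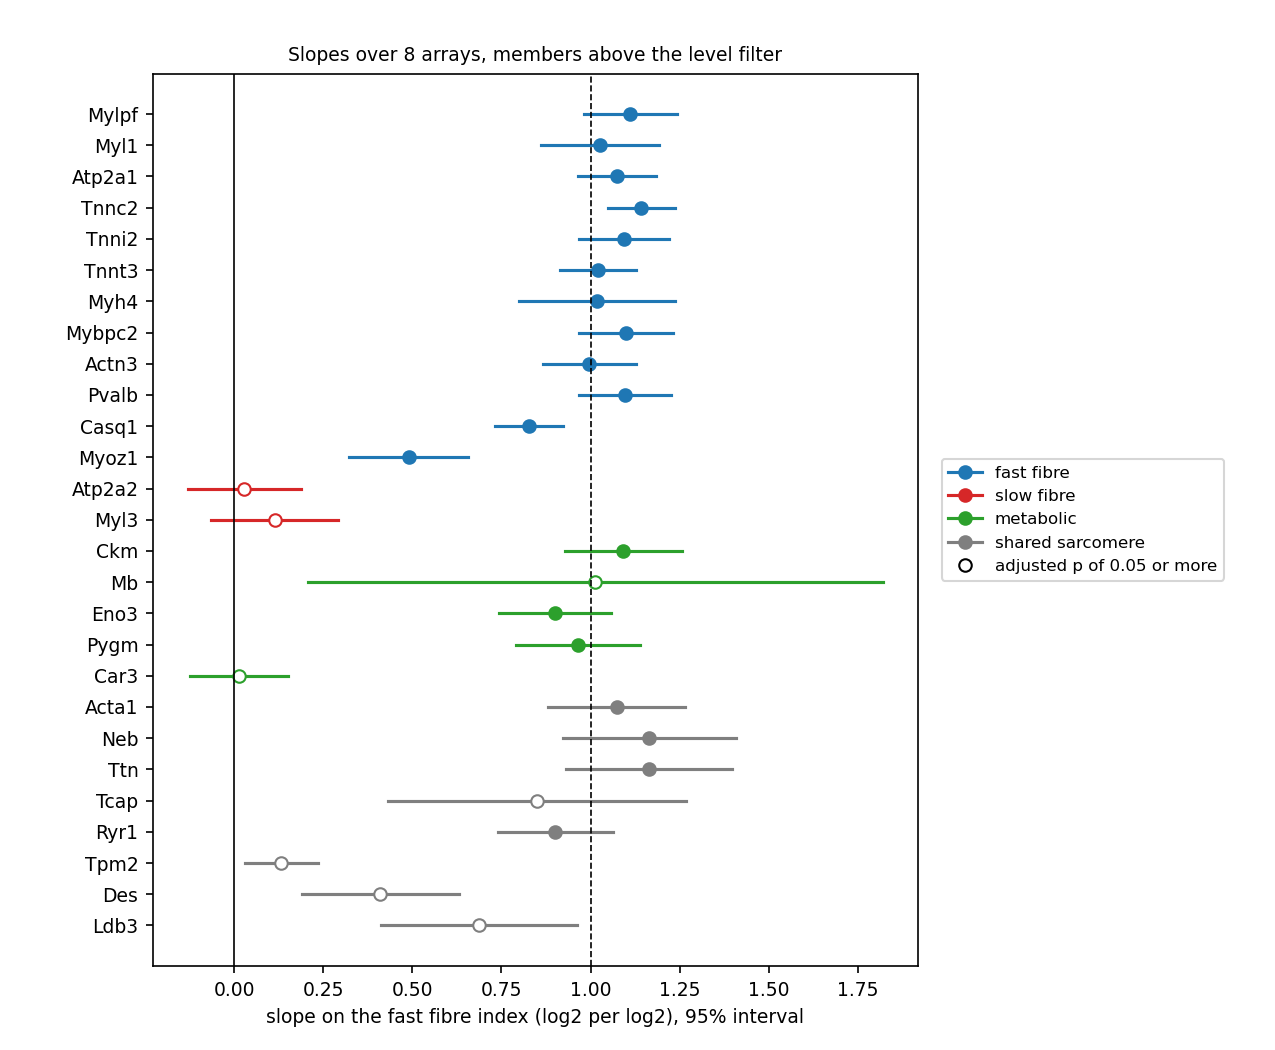
Slope on the fast fibre index over the 8 arrays with its 95% interval (horizontal axis, log2 per log2) for the 27 muscle genes above the level filter, coloured by role, with open points at an adjusted p of 0.05 or more and a dashed line at 1. Most fast, shared and glycolytic genes lie around 1, Atp2a2, Myl3 and Car3 lie near 0, and Mb has the widest interval.

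The arrays at 18 and 24 h show the separation most directly, since their fast fibre index was nearly equal, at 0.87 and 0.84. This pair was chosen for comparison after its values were seen, and each side is 1 array. Myh1 was 14.2-fold higher at 24 h than at 18 h, a log2 difference of 3.83, and Myh2 was 4.42-fold higher. Mb was 2.24-fold, Myl2 2.07-fold, Mybpc1 1.97-fold and Actn2 1.61-fold higher. Over the same pair Tnnt3 differed by 0.00 on the log2 scale, Casq1 by 0.02, Mybpc2 by 0.04, Ckm by -0.20, Pvalb by -0.22 and Myh4 by -0.29. Other genes lay in between, so the order was graded. Tcap differed by 0.49, Des by 0.38, Neb by 0.33, Ttn by 0.26 and Acta1 by 0.23. The slow troponins and Myh7 differed by 0.38 to 0.53. Myh1, Myh2, Mb, Myl2, Mybpc1 and Actn2 were among 13 of 18193 genes (0.0715%) that were at least 1.5-fold higher at 24 h. As much lower were 6 genes (0.033%), 0 of them muscle genes. The SD of the difference between these arrays over all tested genes was 0.0901. Myh1, Myh2, Myl2, Mybpc1 and Actn2 lay below the level filter, so they were not among the genes of that SD.

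**Figure D4:**
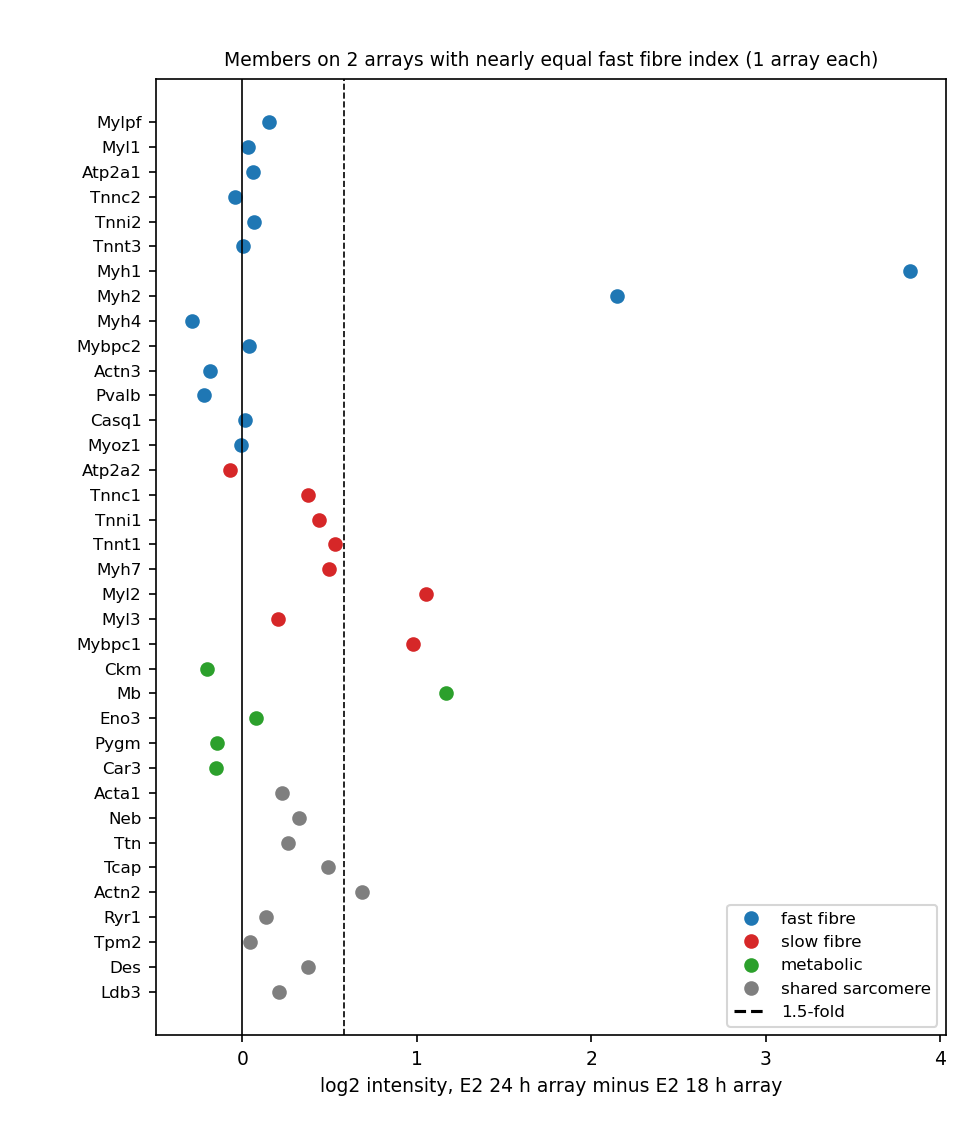
Log2 intensity on the E2 24 h array minus that on the E2 18 h array (horizontal axis) for the 36 genes in rows, coloured by role, with a dashed line at 1.5-fold. Myh1, Myh2, Mb, Myl2, Mybpc1 and Actn2 lie beyond the line, the slow troponins and Myh7 short of it, and most fast fibre genes near 0.

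The 7 further genes on the higher side were mostly muscle genes too. Smpx, a small muscle protein at the cell's force-bearing sites, was 1.46 above the vehicle mean at 24 h and 1.16 at 6 h, and Hspb6, a small heat shock protein of muscle, was 1.05 and 1.34. Csrp3, the muscle LIM protein, had 0.88 at 24 h, 0.99 at 6 h and between -0.02 and 0.26 on the other E2 arrays. Myot, the Z-disc protein myotilin, and Ckmt2, the mitochondrial creatine kinase of muscle and brown fat, were 0.80 and 0.69 higher at 24 than at 18 h. The remaining ones were Myhas, an antisense transcript of the myosin heavy chain cluster, and Serpinb2, a protease inhibitor, at 0.67 and 0.63. Whether the Myhas probe set also reads a myosin chain was not tested.

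The ratio between 6 h and 1 h gave a like order. Myh1 was 3.58 higher at 6 h than at 1 h on the log2 scale, Myh2 2.51, Mb 1.63, Myl2 1.49, Mybpc1 1.41 and Actn2 1.04. Tnnc1, Tnni1, Tnnt1 and Myh7 were 0.72 to 0.80 higher, Neb and Ttn 0.66, and Myh4 0.00. The fast fibre index was 1.13 at 6 h and 0.87 at 1 h, so these arrays are less evenly matched than the late pair.

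Genes outside the 36 whose pattern was most like the fast fibre index over the 8 arrays were Tpm1, with a Pearson r of 0.97, Hrc, Sh3bgr, 4930556N13Rik, 4933433G19Rik, C2cd2, Ampd1, Smr2, Jph2 and Pfkm, the last with 0.93. All points share the same 8 arrays, so the r is a description. The 9 further genes with a called slope were Srl, Ampd1, Sh3bgr, Tpm1, Cmya5, Eef1a2, Smr2, Hrc and Ak1. Their slopes lay between 0.44 for Ak1 and 0.81 for Srl, and only the interval of Srl (0.56 to 1.06) held 1. Ampd1, the AMP deaminase of muscle, and Srl, sarcalumenin of the reticulum, reached 1.04 and 0.99 at 6 h.

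Of 53 other skeletal muscle genes, 51 were on the array and 20 passed the level filter. Their mean difference was 0.09 and -0.09 on vehicle 1 and vehicle 2 and 0.19, 0.12, 0.38, 0.06, 0.21 and 0.33 at the 6 E2 times. The limma comparison of E2 with vehicle called 0 of the 20, with 9 at an unadjusted p below 0.05 and a median of 0.18, and the slope on the fast fibre index was called for Ampd1, Hrc, Srl and Cmya5. Of 21 regulatory and denervation genes 19 were on the array and 5 were tested, and 0 were called in either fit. Trim63, the atrophy-linked ubiquitin ligase of muscle, which lay below the level filter, had its own course, with 0.46, 0.99, 0.94, 0.14, 0.33 and 0.58. Fbxo32, of the same list and above the filter, had -0.01, 0.29, -0.14, 0.13, 0.04 and 0.19. Chrna1, the muscle acetylcholine receptor subunit that denervated fibres raise, lay between -0.10 and 0.38. Of genes that fasting or the daily rhythm moves in muscle, 0 of 10 tested were called in either fit, and Pdk4, which restrains glucose oxidation, was highest at 3 h, at 0.96.

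Markers of neighbouring tissues were read on the same arrays, and their part in the muscle signal was not tested. Of 10 heart genes 2 passed the level filter, all 10 together summed to 1495 to 1696 with E2 and 1418 to 1554 with vehicle, and the natriuretic peptide genes Nppa and Nppb, both below the filter, lay between -0.10 and 0.23 on the E2 arrays. Actc1, cardiac alpha-actin, had the larger difference of the 2 tested heart genes, with 0.20, 0.01, 0.23, 0.14, 0.57 and 0.28 at the 6 times. The summed intensity of the 12 smooth muscle genes lay between 11152 and 11936 on the E2 arrays and between 10186 and 10521 on the vehicle arrays, and Tpm1 was the one of its 10 tested genes with a called slope. Summed over their genes on the array, tendon genes (2 of 7 above the filter) had 938 to 1114 with E2 and 974 to 1023 with vehicle, skin epidermis genes (2 of 8) 1104 to 1990 and 1093 to 1417, and brown fat genes (6 of 11) 5996 to 7418 and 5213 to 6354. The skin sum was 1707, 1990 and 1878 at 1, 3 and 6 h and between 1104 and 1356 at 12, 18 and 24 h. The epidermal keratin genes Krt10 and Krt77, both below the filter, were at 1.27 and 1.06 at 1 h, and 1.64 and 1.27 at 3 h. They were at 1.25 and 0.68 at 6 h, and between -0.08 and 0.28 at the later times. The 2 tested skin genes, Dmkn and Asprv1, were at 0.04 and 0.08 at 1 h, below vehicle 1, which was at 0.34 and 0.14. They had 0.41 and 0.11 at 3 h, 0.52 and 0.31 at 6 h, and between -0.48 and 0.18 later. Ucp1, the uncoupling protein that defines brown fat, was at 0.64, 1.11, 0.93, 0.67, 0.70 and -0.37 at the 6 times. Brown fat genes above the filter averaged less, at 0.12, 0.37, 0.26, 0.27, 0.41 and 0.04, and 0.20 on vehicle 1. Among them, Cox7a1, Cidea and Cox8b lay between 0.05 and 0.18 at 1 h and between -0.03 and 0.15 at 24 h. White adipocyte genes summed to 55776 to 60918 with E2 and 56739 to 60768 with vehicle. Apart from Tpm1, 0 genes of these lists had a called slope.

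The gland's own cells had yet other courses. Luminal epithelial genes averaged 0.03, -0.19, -0.19, 0.39, 0.27 and 0.22 at the 6 times, highest at 12 h, where the fast fibre index was lowest among the E2 arrays. Myoepithelial genes averaged between 0.14 and 0.24 on the E2 arrays, and B and T lymphocyte genes lay at -0.44 and -0.37 at 18 and 24 h. Oxidative phosphorylation genes, which are active in all cells and dense in oxidative fibres, averaged at most 0.14, at 12 h, and 0.06 and 0.02 at 6 and 24 h, the arrays on which Myh1, Myh2 and Mb were high. In summed intensity, luminal genes had 6752 to 11565 with E2 and 7754 to 8126 with vehicle, myoepithelial genes 5317 to 5720 and 4920 to 5102, lymphocyte genes 6071 to 9022 and 7449 to 9223, and oxidative phosphorylation genes 73807 to 82187 and 74139 to 74702. None of these 4 lists held a gene with a called slope on the fast fibre index.

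**Figure D5:**
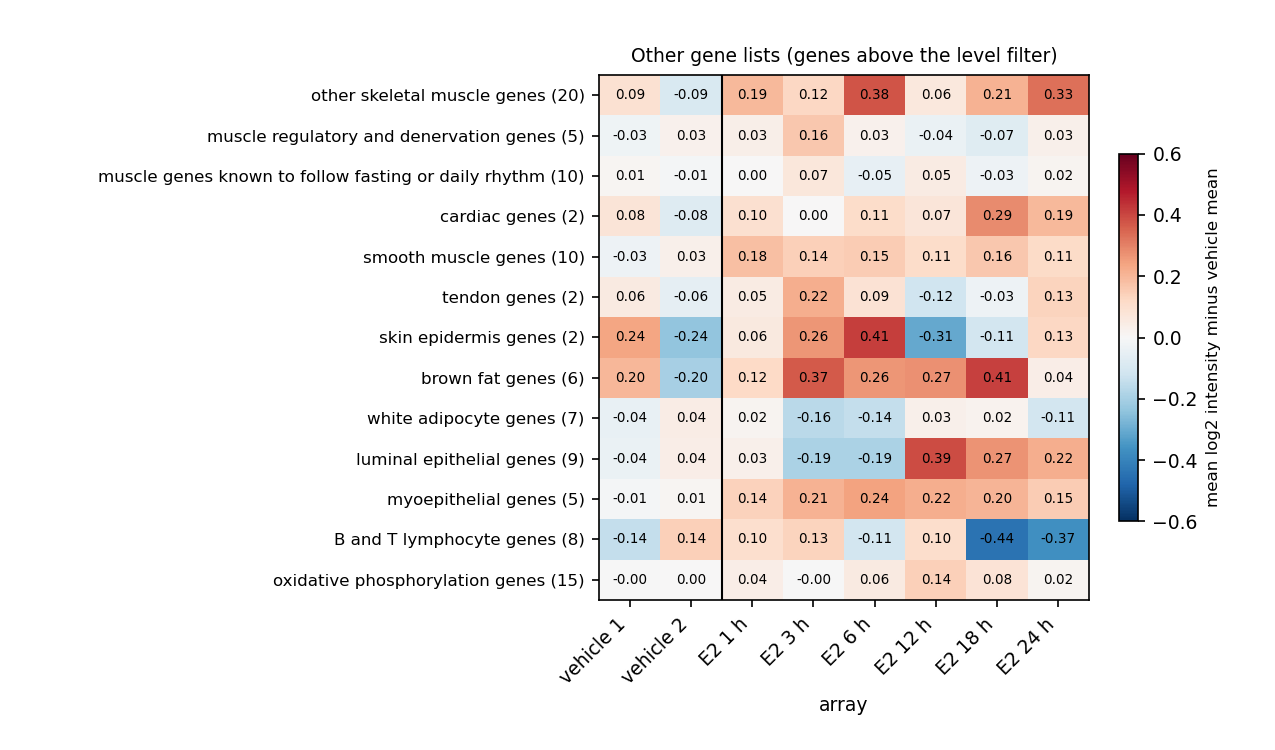
Mean log2 intensity minus the vehicle mean (colour and number) of the tested genes of 13 other gene lists, in rows with the number of genes tested in brackets, on the 8 arrays in columns. Other skeletal muscle genes have their highest values at 6 and 24 h, luminal epithelial genes at 12 h, and lymphocyte genes their lowest at 18 and 24 h.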

How the data were processed

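Inguinal mammary gland RNA was measured on 8 arrays, 6 of E2 groups and 2 of vehicle groups, grouped by their titles. The authors deposited intensity values per probe set, normalized across arrays, and GCOS 1.0 and RMA are named per the submitters' processing notes, without role or order. From the deposited intensity values log2 was taken, with no further normalization. Of 45101 probe sets, 64 controls, 932 with several gene symbols and 9160 with none were left out. Symbols of the platform annotation were checked through Entrez identifiers against RefSeq GRCm38.p6, where 34741 of 34945 matched. The brightest probe set stood for its gene, and 15 of the 36 muscle genes had more than 1.

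Group, window and slope models were fitted with limma 3.58.1 in R 4.3.3 (mean-variance trend, two-sided p, Benjamini-Hochberg over the 10916 genes above the 40th percentile) and tested on simulated data. Other steps used Python 3.11.15 and pandas 2.3.3. All 36 genes are accounted for; of each other list up to 4 tested genes with the largest E2 difference could be named, and outside the 36 the 10 genes with the highest r. Genes named beyond that rule were chosen after their values were seen. The muscle genes, lists and tests were chosen with earlier results of these data known. Alternatives were no level filter, quantile normalization, averaged probe sets, no trend, other indexes, single vehicle arrays, 7 group means, and leaving out each array. The number of arrays limits the precision.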

Additional observations from a re-analysis of the deposited data

How the results depend on the processing

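No muscle gene was called under any alternative in the comparisons of all E2 arrays with vehicle or of the windows. The fit with 7 group means, taken up below, is apart from these. Slopes were counted for tested muscle genes that are neither fast fibre genes nor part of the index. Of these, 7 to 9 were called in all fits but that on the shared genes, where 2 of 7 (Ckm and Eno3) were. Called genes in the early window, 0 as reported, numbered 1 without the level filter and 1 with the mean of probe sets, and 0 to 49 when an array was left out (49 without the 1 h array, 8 without 6 h, 3 without 3 h). Between windows, 60 as reported became 23 with the mean of probe sets and 0 to 232 when an array was left out: 0 without 18 h or 24 h, 8 without 3 h, 13 without 12 h, 37 without either vehicle array and 232 without 1 h. Limma with 7 group means, which assumes that a lone array varies as the vehicle arrays do, called 9 muscle genes at 6 h and 0 at each of the other times, in place of the counts at 1.5-fold. Against vehicle 2 alone 19 passed 1.5-fold at 3 h (0.753% of all genes) and 3 at 12 h (0.214%). The slope of Pygm was no longer called with the index over all fast fibre genes (0.79, adjusted p = 0.0699) or over shared genes (1.04, adjusted p = 0.0533), and Tpm2 was called with the mean of probe sets (0.58, adjusted p = 0.0119). The causes were not tested.

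Values near 0 changed sign. Against vehicle, leaving out an array gave -0.0040 (without vehicle 1) to 0.059 for Atp2a2, -0.037 (without vehicle 2) to 0.20 for Myl3 and -0.035 (without vehicle 1) to 0.053 for Car3, which was -0.018 with quantile normalization and -0.048 with the mean of probe sets. Leaving out an array gave slopes of -0.046 (without 6 h) to 0.064 for Atp2a2 and -0.014 (without 1 h) to 0.067 for Car3, whose slope was -0.0089 with quantile normalization, -0.14 with the mean of probe sets, -0.015 with the index over all fast fibre genes and -0.019 with that over shared genes. No paired analysis was possible because the E2 titles carry no replicate number. With 1 array a time and 2 vehicle arrays that differ in muscle signal, time, batch and handling cannot be told apart, and signal near background limits the 9 genes below the filter.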
